A study of Mus musculus with 15 samples.

Results

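Immunoglobulin light chain variable (V) segments were followed through 15 RNA-seq libraries of mouse hematopoietic stem cells (HSCs). The set was every gene of the deposited table whose symbol begins with Igkv or Iglv and a number. It held 160 of the table's 31298 symbols: 157 kappa segments and 3 lambda segments, Iglv1, Iglv2 and Iglv3. All 160 matched the GENCODE annotation of GRCm38, which lists 103 as V genes (called functional below) and 57 as V pseudogenes. The rule itself uses symbols and no measured value, but the set was taken up with earlier results of these data known. All counts below are over the 160 unless another number is given.

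The HSCs were LSK, CD48-, Flk2- and CD150+ bone marrow cells of hCD34-tTA x TetO-H2BGFP mice. In this strain the human CD34 promoter drives a transactivator, which switches on a histone H2B joined to green fluorescent protein; doxycycline stops its synthesis, after which divisions dilute the label. The sort was divided by remaining label into GFP4, GFP3, GFP2 and GFP1, and Total is the undivided sort. Each of the 5 groups had 3 libraries, I, II and III. For all groups alike, the mice of I were 5 months old with 12 weeks of doxycycline, those of II 5.5 months with 14 weeks, and those of III 6.5 months with 16 weeks. The labels state neither which end of the bins kept the most label, nor whether a library came from a single mouse or a pool, nor whether libraries of the same number came from the same mice. Read depth is unknown. All values are the authors' log2 values, with a lowest value of 0.14.

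A light chain is made by developing B cells, which join a V segment to a J segment by deleting or inverting the DNA between them. The joined exon is spliced to a constant gene, Igkc for kappa or an Iglc gene for lambda. Transcripts of a rearranged light chain gene are abundant in B cells and above all in plasma cells, the antibody-secreting end stage of the lineage. HSCs are known as cells in which these genes are not rearranged.

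The ends of 8 V segments named in the results on sharing between libraries are printed here. Those given for a number were picked after their values had been seen. Each line holds the last 90 bases of the segment, 5′ to 3′ on its own strand, read from the GENCODE transcripts of GRCm38. The last in-frame cysteine codon is in capitals; the bases after it open the third complementarity-determining region, which contacts antigen. Igkv4-68 (chr6:69304834-69304923, minus strand) and Igkv19-93 (chr6:68736297-68736386, minus strand) were higher in both libraries of number I than in the other 4 GFP1 and Total libraries. Igkv2-112 (chr6:68220617-68220706, plus strand) and Igkv4-80 (chr6:69016558-69016647, minus strand) did so in number II. Igkv3-5 (chr6:70663806-70663895, plus strand) and Igkv4-57-1 (chr6:69544359-69544448, minus strand) did so in number III. Igkv1-117 (chr6:68121738-68121827, plus strand) and Iglv1 (chr16:19085017-19085106, minus strand) were high in all 6 GFP1 and Total libraries.
Igkv4-68: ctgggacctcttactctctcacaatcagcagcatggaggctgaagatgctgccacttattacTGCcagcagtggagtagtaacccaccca
Igkv19-93: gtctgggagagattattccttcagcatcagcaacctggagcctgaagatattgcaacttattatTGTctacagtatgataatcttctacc
Igkv2-112: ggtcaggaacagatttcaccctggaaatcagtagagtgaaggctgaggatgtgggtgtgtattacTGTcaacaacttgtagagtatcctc
Igkv4-80: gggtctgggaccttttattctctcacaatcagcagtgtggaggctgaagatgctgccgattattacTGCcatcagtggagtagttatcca
Igkv3-5: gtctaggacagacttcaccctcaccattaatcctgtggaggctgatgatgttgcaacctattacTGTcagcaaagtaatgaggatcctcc
Igkv4-57-1: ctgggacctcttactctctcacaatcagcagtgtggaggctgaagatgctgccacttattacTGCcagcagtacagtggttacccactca
Igkv1-117: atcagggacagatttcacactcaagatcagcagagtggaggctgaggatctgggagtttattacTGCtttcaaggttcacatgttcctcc
Iglv1: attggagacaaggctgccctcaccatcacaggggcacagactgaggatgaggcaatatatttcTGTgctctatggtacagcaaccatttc
Igkv4-68, Igkv4-80 and Igkv4-57-1 belong to the family Igkv4, and the other 5 segments to 5 further families.

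Light chain V segments were abundant in the GFP1 and Total libraries and low in the other 9. A log2 value of 8 was taken as the mark of a high segment; about 34.5% of all genes lie above it in every library, because the authors' columns share a single distribution. GFP1 I, II and III had 63, 73 and 66 segments above 8, and Total I, II and III had 30, 45 and 31. GFP4 I, II and III had 0, 1 and 2, GFP3 I, II and III had 1, 1 and 0, and the GFP2 libraries had 0 each. The 3 GFP1 libraries were therefore all above the 3 Total libraries, and both sets were above the remaining 9 with no overlap. Means were 67.3 ± 5.13 in GFP1 and 35.3 ± 8.39 in Total (SD, n = 3), and 1 ± 1 in GFP4. The exact two-sided permutation p was 0.1 for GFP1 against Total, for GFP1 against GFP4 and for Total against GFP4, the smallest that 3 against 3 libraries allow. In bulk libraries, fewer cells with a transcript and less RNA per cell cannot be told apart.

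**Figure D1:**
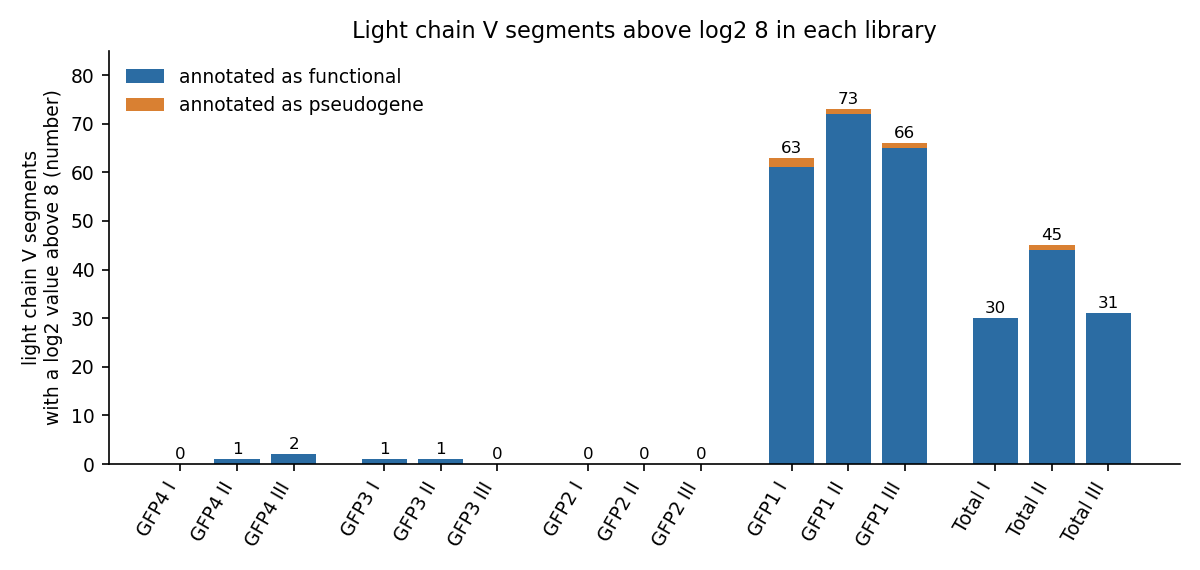
Number of light chain V segments with a log2 value above 8 in each of the 15 libraries (bars, number printed above each), divided into segments annotated as functional and as pseudogenes. The GFP1 bars reach 63 to 73 and the Total bars 30 to 45, and no other library exceeds 2.

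The share of the summed values differed less between GFP1 and Total than the number of segments did. It is computed from values placed on a single shared distribution, with an unknown unit, so it is not a measured share of RNA. On the linear scale (2 to the power of the value, minus 1), the 160 segments made up 1.14%, 1.04% and 1.17% of the summed values in GFP1 I, II and III. In Total I, II and III they made up 0.793%, 1.24% and 0.942%, a range that overlaps that of GFP1. In the other 9 libraries the share ran from 0.00112% to 0.0137%. The sum was carried by fewer segments in Total. The effective number of segments (the exponential of the Shannon entropy of their linear shares) was 26.4, 32.2 and 39 in GFP1 I, II and III and 18.5, 23.8 and 23.5 in Total I, II and III, which do not overlap (exact two-sided permutation p = 0.1, the smallest possible).

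Segment values covered the whole scale within the GFP1 and Total libraries. Of the 480 segment values in the 3 GFP1 libraries, 145 were below 2, 107 from 2 to 6, 26 between 6 and 8, 47 between 8 and 10 and 155 above 10. In the 3 Total libraries the same ranges held 184, 169, 21, 14 and 92 of 480. Of 1440 values in the GFP2, GFP3 and GFP4 libraries, they held 1019, 405, 11, 0 and 5. The mark of 8 is a choice. Just above 8 lay Igkv12-40 in GFP1 I (8.11) and Igkv3-11 in GFP1 II (8.13), and just below it Igkv3-3 in GFP1 III (7.92) and Iglv2 in GFP1 II (7.83).

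**Figure D2:**
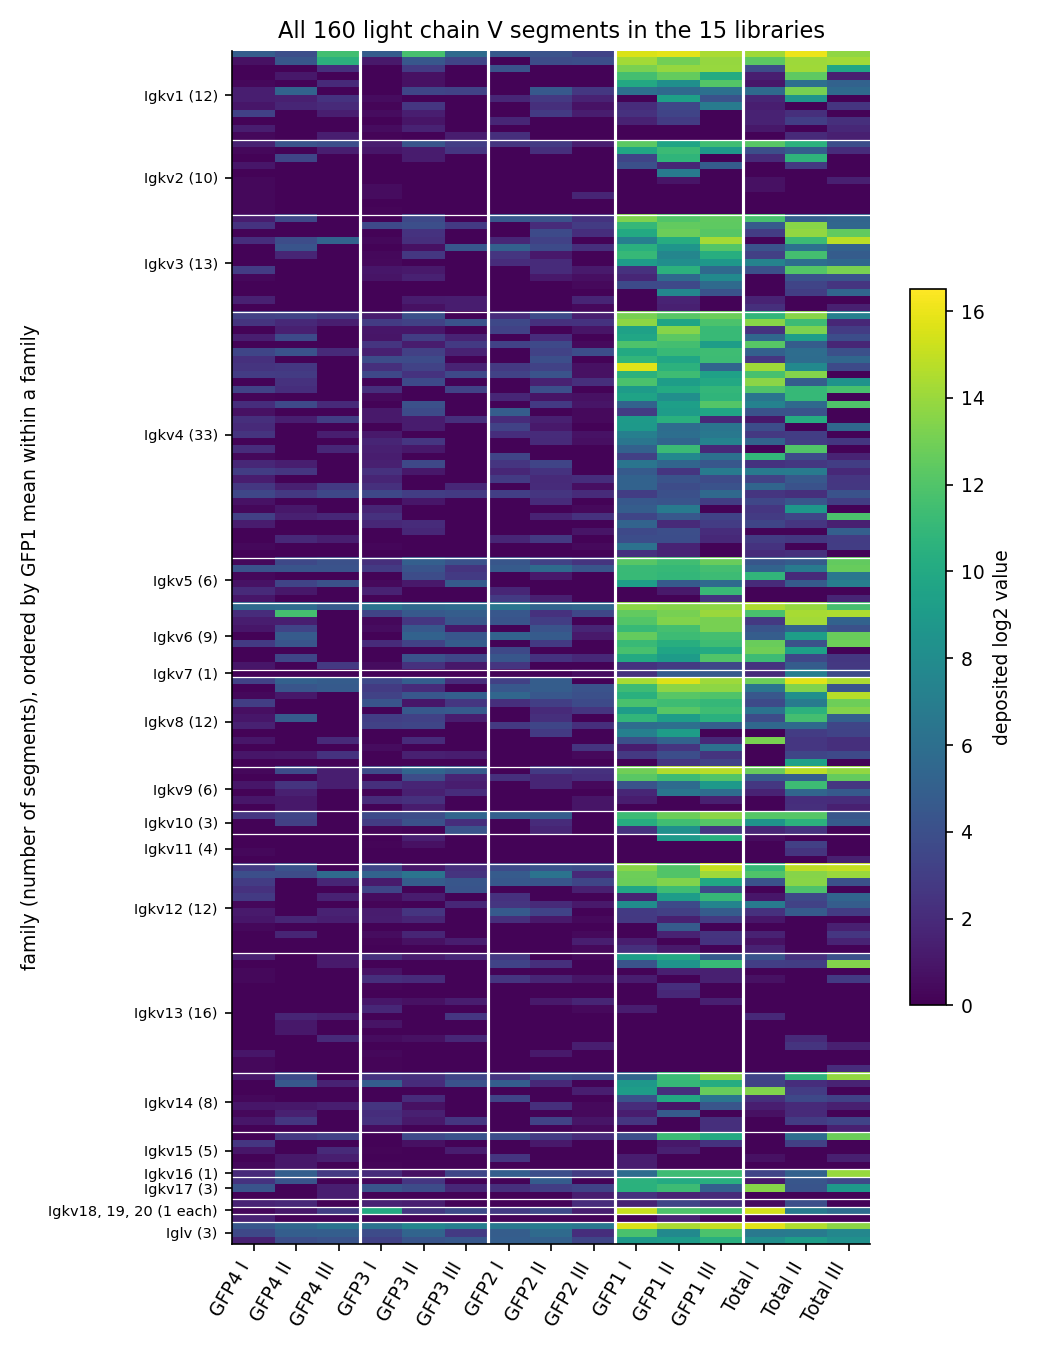
Deposited log2 values (colour) of all 160 segments (rows, grouped by family and ordered by GFP1 mean within each family) in the 15 libraries (columns). The 6 GFP1 and Total columns hold nearly all high values, the high rows differ more between the Total columns than between the GFP1 columns, and the 14 pseudogenes of family Igkv13 stay low.

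In GFP1 against GFP4, 77 segments were higher and 0 lower by limma at an adjusted p under 0.05. The filter on low values passed 138 of the 160 segments, and 9.27% of all 27994 genes tested were called higher and 10.3% lower. No segment was lower at an unadjusted p under 0.05 either. Differences of the called segments ran from 2.88 to 12.83 on the log2 scale, with a median of 8.56. In a fit without the filter, the median difference over all 160 segments was 4.70, beside -0.04 over all 31298 genes. Of the 77, 69 are functional and 8 are pseudogenes. In 94 segments all 3 GFP1 values lay above all 3 GFP4 values; 15.1% of all genes tested did so.

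Igkv1-122 had the largest difference of these. Its values were 0.14, 0.14 and 2.20 in GFP4 I, II and III and 13.15, 13.87 and 13.95 in GFP1 I, II and III (difference 12.83, SE 2.18, limma adjusted p = 0.00154). Igkv9-120 stood at 0.35, 3.78 and 1.40 in GFP4 and at 12.94, 14.52 and 14.73 in GFP1 (12.22, SE 1.00, adjusted p = 6.18e-06). Both were near the bottom of the scale in every GFP4 library and among the high segments in every GFP1 library. Igkv6-13 went from 1.33, 1.38 and 0.14 to 12.10, 13.38 and 13.09 (11.91, SE 2.46, adjusted p = 0.00538). Igkv2-109, whose p was among the smallest, stood at 0.35, 0.14 and 1.40 in GFP4 and 9.81, 11.22 and 8.87 in GFP1 (9.34, SE 0.82, adjusted p = 9.92e-08). Such differences start near the lowest value and depend on the offset in the authors' logarithm, so their size is less certain than their direction.

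The segment with the smallest p is annotated as a pseudogene. Igkv3-11 (chr6:70553239-70553862, plus strand) was at the lowest value, 0.14, in all 3 GFP4 libraries, for which no difference is given. It was at 9.15, 8.13 and 8.83 in GFP1 I, II and III and at 7.40, 5.98 and 5.49 in Total I, II and III (limma adjusted p = 2.01e-08 for GFP1 and 6.35e-06 for Total against GFP4). Its 3 GFP1 values lay close together, above all Total values. The 3 equal GFP4 values added no spread to the shared estimate, so these p-values do not measure variation within GFP4. Igkv3-11 shares 89% of its 31-base words with other light chain V segments, so reads of another segment could have been assigned to it.

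Against GFP2, the neighbouring bin, 66 segments were higher in GFP1 and 0 lower, with 3.06% of all genes tested higher and 4.1% lower. After median-of-ratios rescaling, the split over all genes turned from 858 higher and 1149 lower to 1130 higher and 889 lower, while the segments stayed at 66 and 0. Igkv9-120 was at 0.14, 2.83 and 2.38 in GFP2 I, II and III, which gave the largest difference (12.28, SE 1.00, limma adjusted p = 4.32e-05). Igkv8-30 stood at 3.14, 4.87 and 0.14 in GFP2 and at 14.33, 15.66 and 14.11 in GFP1 (11.98, SE 1.23, adjusted p = 0.000248). All 3 GFP1 values exceeded all 3 GFP2 values in 93 segments (10% of all genes tested). The count fell to 43 without GFP2 II and to 36 without GFP2 III.

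Between GFP2 and GFP4, limma called 0 segments in either direction (0 lower and 2 higher at an unadjusted p under 0.05), where 2.69% of all genes tested were called higher in GFP2 and 1.67% lower. In the fit without the filter, the median difference over all 160 segments was 0.07. When the 2 groups were fitted alone, 1 segment was called, as when Total III was left out.

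In Total against GFP4, 31 segments were higher and 0 lower, with 5.29% of all genes tested higher and 4.7% lower. Of the 31, 28 are functional. Igkv9-120 had the largest difference, with 12.72, 14.78 and 13.83 in Total I, II and III (11.94, SE 1.00, limma adjusted p = 3.42e-05). Igkv12-46 stood at 2.81, 4.17 and 0.14 in GFP4 I, II and III and at 11.09, 14.87 and 15.06 in Total (11.30, SE 1.31, adjusted p = 0.000334, and 0.135 with the replicate number as a block in these 2 groups alone). Igkv6-15 was at 14.44, 13.90 and 11.62 in Total and at 5.72, 5.84 and 4.65 in GFP4 (7.92, SE 0.64, adjusted p = 2.69e-05). All Total values lay above all GFP4 values in 64 segments (10.6% of all genes tested). The count of 31 fell to 18 without GFP4 I, 20 without GFP4 III, 15 with these 2 groups fitted alone and 19 with an offset of 10 before the logarithm.

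GFP1 and Total share the GFP4 reference in the comparisons above, so they were also compared directly. Here 9 segments were higher in GFP1 and 0 lower, with 0.318% of all genes tested higher and 1.41% lower; at an unadjusted p under 0.05, 33 segments were higher and 1 was lower. All 9 are functional, with differences of 4.38 to 7.68. The 3 GFP1 values exceeded the 3 Total values in 23 segments (6.43% of all genes tested). Igkv14-100 was at 8.80, 11.05 and 10.23 in GFP1 I, II and III and at 3.23, 2.15 and 1.65 in Total (7.68, SE 1.30, limma adjusted p = 0.00994). Igkv6-20 was at 11.09, 11.63 and 13.12 in GFP1 and 4.31, 5.29 and 4.09 in Total (7.39, SE 1.20, adjusted p = 0.00838). Neither reached 6 in any Total library. Igkv17-121 stood at 10.61, 10.06 and 10.42 in GFP1 and 1.13, 4.40 and 3.52 in Total (7.35, SE 1.33, adjusted p = 0.013, but 0.054 without Total I and 0.0542 with the replicate number as a block in these 2 groups alone). Igkv4-59 stood at 9.999, 11.09 and 11.38 against 5.07, 5.93 and 4.06 (5.81, SE 0.87, adjusted p = 0.00252), and Igkv2-109 at the GFP1 values given above against 3.98, 4.78 and 2.06 (6.36, SE 0.82, adjusted p = 0.00031, and 0.0887 with the 2 groups fitted alone). Igkv4-71 was lower in both groups, with 7.09, 5.96 and 6.64 against 2.72, 3.01 and 0.14 (4.61, SE 0.84, adjusted p = 0.00636). The count rose to 19 without Total II and 15 without Total III; it fell to 5 with the 2 groups fitted alone and to 3 with an offset of 0.1, where Igkv14-100 (adjusted p = 0.0597), Igkv6-20 (0.0703), Igkv17-121 (0.102) and Igkv4-71 (0.0636) were among those not called.

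The 3 GFP1 libraries used largely overlapping sets of segments, and the 3 Total libraries did so less. GFP1 I and II shared 57 segments above 8 (90.5% of the list of I and 78.1% of that of II), I and III shared 55 (87.3% and 83.3%), and II and III shared 61 (83.6% and 92.4%). Total I and II shared 18 (60% and 40%), I and III shared 14 (46.7% and 45.2%), and II and III shared 19 (42.2% and 61.3%). The lowest share among GFP1 pairs was thus above the highest among Total pairs. The GFP1 lists were longer, with 63 to 73 segments against 30 to 45 in Total. Longer lists drawn from the same segments share a larger part by their size alone, and the overlaps were not corrected for this. Of the 160 segments, 52 were above 8 in all 3 GFP1 libraries, 17 in 2 and 12 in 1. In Total, 11 were above 8 in all 3 libraries, 18 in 2 and 37 in 1. These overlaps are descriptions with no test.

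Those 11 segments of the 3 Total libraries were all above 8 in the 3 GFP1 libraries too. They are Igkv1-110, Igkv1-117, Igkv12-44, Igkv12-46, Igkv4-53, Igkv6-15, Igkv6-23, Igkv8-30, Igkv9-120, Iglv1 and Iglv3. Igkv1-117 was the highest segment of GFP1 II (15.82) and of Total II (16.04) and stood at 15.57 and 14.41 in GFP1 I and III and at 14.18 and 13.76 in Total I and III. Igkv8-30 was at 12.88, 15.79 and 14.45 in Total I, II and III, near its GFP1 values above. Igkv4-53 was above 11 in every Total library (11.93, 11.05 and 11.72) and slightly lower in GFP1 (9.06, 10.06 and 10.92). In all, 87 segments were above 8 in at least 1 of the 6 libraries, 21 of them in GFP1 and no Total library, and 6 in Total and no GFP1 library.

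Segments above 8 shared by GFP1 and Total were counted within and between numbers. Total I shared 28 segments with GFP1 I, Total II shared 40 with GFP1 II, and Total III shared 28 with GFP1 III, or 93.3%, 88.9% and 90.3% of the Total lists and 44.4%, 54.8% and 42.4% of the GFP1 lists. With a GFP1 library of another number, the shared part was 74.2% to 96.8% of a Total list, a range that includes all 3. By values across the 160 segments, each Total library was most like the GFP1 library of its own number. Pearson's r was 0.76, 0.80 and 0.70 for I, II and III, and 0.60 to 0.73 between GFP1 and Total libraries of different numbers. Segments share library, normalization and sequence, so these r are descriptions across segments.

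Some segments were high in both libraries of a number and far lower in the other 4. These were picked after their values had been seen, by the gap between the lower of the 2 values and the highest of the other 4. Igkv2-112 was at 10.81 in GFP1 II and 10.72 in Total II, and at most 3.40 in the other 4. Igkv4-80 was at 11.22 in GFP1 II and 12.02 in Total II, and at most 5.11 in the other 4. Each is thus a segment of number II in these data, as is Igkv1-133 (9.38 and 8.63, against at most 4.16). In number I the highest segment of GFP1 I, Igkv4-68, was at 15.79 there and 14.14 in Total I, and at 10.62, 5.33, 7.80 and 3.70 in GFP1 II, GFP1 III, Total II and Total III. Igkv19-93 was at 15.11 in GFP1 I and 15.35 in Total I, and at 11.90, 11.60, 6.88 and 5.88 in the same 4. In number III, Igkv3-5 was at 14.27 in GFP1 III and 14.77 in Total III, and at 7.15, 10.23, 0.14 and 11.22 in GFP1 I, GFP1 II, Total I and Total II. Igkv4-57-1 (12.09 and 11.94, against at most 9.30), Igkv13-85 (11.12 and 13.46, against at most 8.49) and Igkv14-111 (13.60 and 13.81, against at most 11.22) followed the same number.

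**Figure D3:**
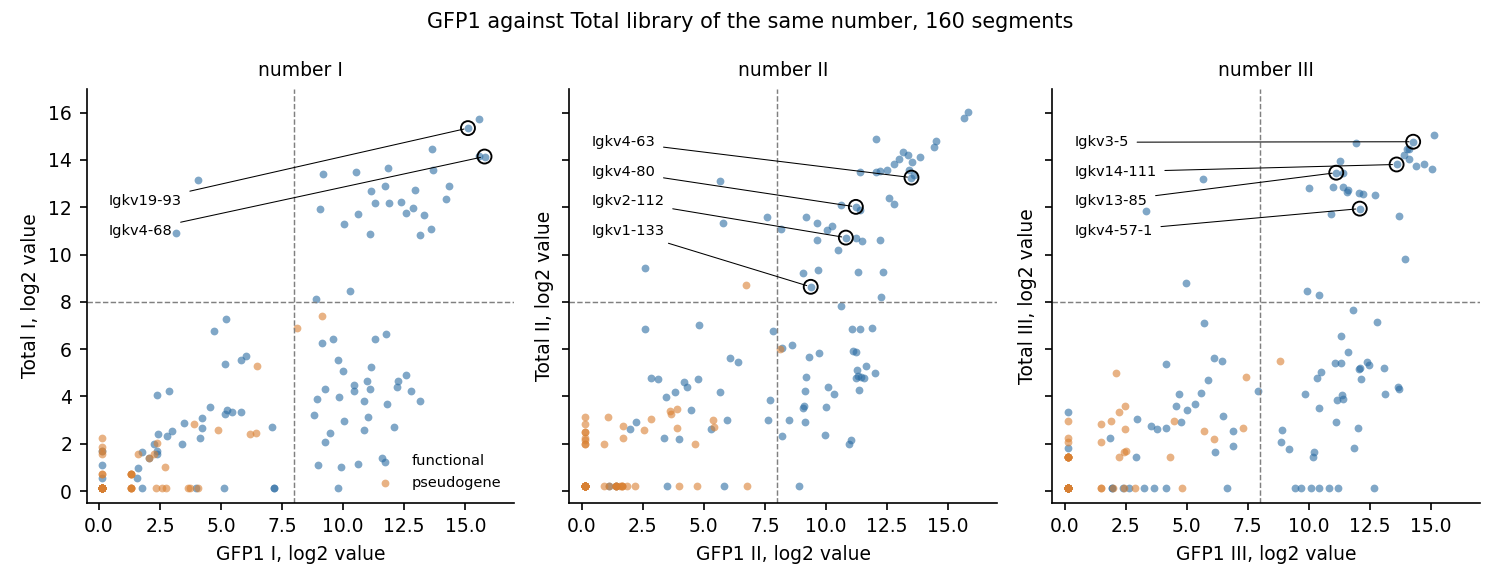
Log2 values of the 160 segments in each GFP1 library (x axis) against the Total library of the same number (y axis), with dashed lines at 8. Circled segments have a lower value in the pair that exceeds the highest value of the other 4 GFP1 and Total libraries. The gap is more than 2 on the log2 scale. They number 2, 4 and 4 in I, II and III, and no such count was made for pairs of different numbers. The lower right of each panel holds segments high in GFP1 and low in Total.

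Of 9 segments above 8 in exactly 2 of the 6 libraries, 3 were in the GFP1 and Total libraries of a number, all of number II. Another 5 were in 2 GFP1 libraries, and 1, Igkv9-123, was in GFP1 III and Total II. The 6 libraries form 3 pairs of the same number, 6 pairs within a group and 6 other pairs. A further 13 segments were above 8 in a single library. Some of these reached high values there. Igkv8-34 was at 13.15 in Total I and at most 5.28 in the other 5, Igkv1-135 at 13.13 in Total II and at most 6.11, and Igkv4-79 at 11.86 in Total III and at most 4.48. Igkv5-37 was at 11.21 in GFP1 III, with 1.10 as its next value. These 4 too were chosen after their values were seen.

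The 9 libraries of GFP2, GFP3 and GFP4 held 5 values above 8, spread over 4 libraries. Igkv6-23 was at 11.63 in GFP4 II, Igkv1-117 at 11.53 and Igkv1-110 at 10.62 in GFP4 III, Igkv19-93 at 10.08 in GFP3 I, and Igkv1-117 at 11.67 in GFP3 II. A single segment therefore made up 80.5%, 58.9%, 64.8% and 74.9% of the linear segment sum in GFP4 II, GFP4 III, GFP3 I and GFP3 II, against 8.43% to 18.8% in the GFP1 and Total libraries. Igkv19-93, high in GFP3 I, was highest in number I among both the GFP1 and the Total libraries. Igkv1-117 was highest in number II in both groups and lowest in number III (14.41 in GFP1 III and 13.76 in Total III), so its high value in GFP3 II falls in the number where it led and that in GFP4 III in the number where it was lowest. Igkv6-23, high in GFP4 II, was highest in number III among both the GFP1 and the Total libraries. Igkv1-110, high in GFP4 III, was highest in number I among the GFP1 libraries and in number III among the Total libraries. Igkv1-117 and Igkv1-110 are 97.2% identical, so reads in GFP4 III could have been divided between them. With its high GFP4 III value, Igkv1-117 differed by 8.47 between GFP1 and GFP4 (SE 2.09, limma adjusted p = 0.0151), a call lost without GFP4 I (0.0609), GFP4 II (0.063) or GFP1 II (0.0502), with the 2 groups fitted alone (0.0916), and with the replicate number as a block in those groups (0.244).

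Constant and plasma cell genes in the 9 libraries stood as follows. Igkc was at 9.43, 12.08 and 12.88 in GFP4 I, II and III, at 11.45, 12.67 and 9.65 in GFP3 I, II and III, and at 9.71, 10.05 and 9.02 in GFP2 I, II and III. Jchain, which links secreted antibody into polymers, was at 4.76, 8.44 and 11.67 in GFP4, at 8.50, 10.06 and 3.51 in GFP3, and at 5.95, 4.61 and 5.47 in GFP2. The 4 libraries with a V segment above 8 are those with the highest Igkc and the highest Jchain of the 9. Below 8, Iglv1 (4.45 to 7.48) and Igkv6-15 (4.65 to 6.44) had values in all 9 libraries, and Iglv1 was the highest segment of GFP3 III and of all 3 GFP2 libraries. Over the 103 functional segments, Spearman's rho between 1 of these 9 libraries and 1 of the 6 GFP1 and Total libraries was 0.18 to 0.52 in the 18 pairs of the same number and 0.08 to 0.59 in the 36 pairs of different numbers.

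The families, named by the number after Igkv, were broadly represented. Segments above 8 came from 15, 18 and 18 of the 21 families (20 kappa families and lambda as a family) in GFP1 I, II and III and from 14, 11 and 14 in Total I, II and III (exact two-sided permutation p = 0.1, the smallest possible). Igkv7, Igkv18 and Igkv20, with 1 segment each, had none above 8 in these 6 libraries. Igkv4, the largest family with 33 segments, had 14, 16 and 13 above 8 in GFP1 and 8, 10 and 4 in Total. Igkv6 had 8 of its 9 segments above 8 in every GFP1 library and 5, 5 and 4 in Total. Igkv13, with 16 segments of which 14 are pseudogenes, had 1, 2 and 1 in GFP1 and 0, 0 and 1 in Total.

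By share of the linear segment sum, Igkv1 took 19.5%, 23.2% and 13.7% in GFP1 I, II and III and 8.2%, 25.8% and 9.84% in Total. Igkv4 took 23%, 10.6% and 7.56% in GFP1 and 20.5%, 10.3% and 3.41% in Total. Igkv4 was thus highest in number I in both groups. In GFP1 I, the single segment Igkv4-68 made up 13.6% of the segment sum, so this family share rests largely on it. Igkv12 took 6.75%, 5.87% and 13.3% in GFP1 and 2.19%, 12.7% and 14.8% in Total. Igkv6 took 9.15% to 14.7% over the 6 libraries.

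**Figure D4:**
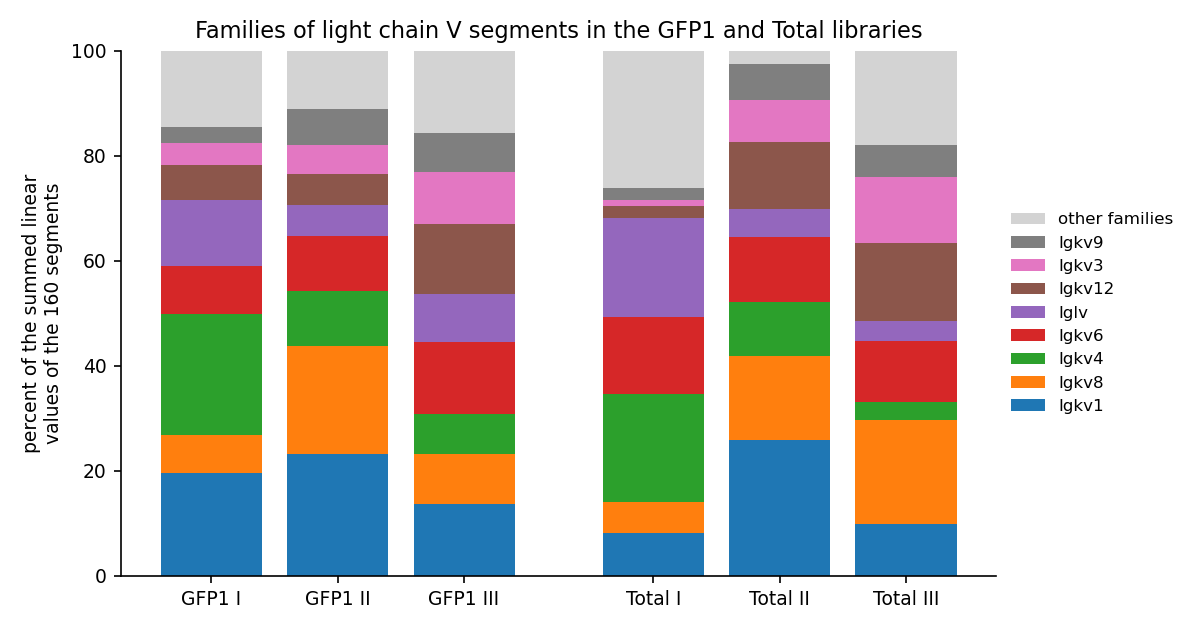
Percent of the summed linear values of the 160 segments taken by the 8 families with the largest mean share, and by all other families together, in the 3 GFP1 and 3 Total libraries. Igkv4 has its largest shares in GFP1 I (23%, of which Igkv4-68 alone is 13.6%) and Total I (20.5%). The lambda segments range from 3.81% in Total III to 18.9% in Total I.

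Lambda segments made up 12.5%, 5.91% and 9.16% of the segment sum in GFP1 I, II and III and 18.9%, 5.39% and 3.81% in Total I, II and III, with overlapping ranges (exact two-sided permutation p = 1). Iglv1 was the highest segment of Total I. It stood at 15.55, 14.41 and 15.06 in GFP1 I, II and III, at 15.73, 14.54 and 13.62 in Total, and at 4.45, 5.49 and 6.26 in GFP4 (GFP1 minus GFP4 9.61, SE 0.59, limma adjusted p = 8.18e-07; Total minus GFP4 9.23, adjusted p = 7.47e-06, and 0.0778 with the replicate number as a block in these 2 groups alone). Iglc1, a lambda constant gene, was at 15.76, 14.42 and 15.23 in GFP1 and 15.94, 14.66 and 13.26 in Total, so it ordered the 3 libraries of each group as Iglv1 did. Iglv3 was at 8.89, 9.04 and 10.41 in GFP1, 8.13, 9.20 and 8.27 in Total and 1.54, 3.98 and 4.25 in GFP4 (GFP1 minus GFP4 6.19, SE 0.68, adjusted p = 7.29e-06). Iglv2 was at 11.77, 7.83 and 11.81 in GFP1, 6.65, 6.78 and 7.65 in Total and 3.58, 4.91 and 4.94 in GFP4 (GFP1 minus GFP4 5.99, SE 1.19, adjusted p = 0.00374, and 0.12 with that block in those 2 groups alone). Total minus GFP4 did not pass for Iglv2 (adjusted p = 0.253), nor did GFP1 minus Total (0.245). Iglv1 and Iglv2 are 97.1% identical, and Iglv1 overlaps an annotated antisense gene; whether reads were assigned by strand is not given in the sources used here.

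High segments were mostly functional ones. Of 103 functional segments, 84 were above 8 in at least 1 of the 6 GFP1 and Total libraries, and of 57 pseudogenes 3 were: Igkv3-11, Igkv12-40 (8.11 in GFP1 I) and Igkv4-75 (8.72 in Total II). The median of the GFP1 means was 10.01 over the functional segments and 0.93 over the pseudogenes, and in Total 6.20 and 0.80. The filter on low values passed 102 of the functional segments and 36 of the pseudogenes. Still, 19 functional segments were never above 8 in these libraries.

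Position along the kappa locus was compared for the 100 functional kappa segments, ordered by distance from Igkc (chr6:70726435-70726966, plus strand). They were cut into 4 groups of 25. In the nearest, 22.9 to 588 kb away, 16 segments were above 8 in all 3 GFP1 libraries and 21 in any of the 6 libraries. In the next groups these counts were 14 and 20, then 9 and 19, and in the farthest, 2185 to 3171 kb away, 10 and 21. High segments thus came from the whole length of the locus. The median GFP1 mean was 10.55, 10.01, 7.94 and 8.94 from the nearest group to the farthest. By strand, 62 segments lie opposite to Igkc and join by inversion, and 38 lie in the same orientation and join by deletion. Above 8 in all 3 GFP1 libraries were 34 of the 62 and 15 of the 38. Above 8 in any of the 6 libraries were 48 of the 62 and 33 of the 38, so the larger share changed sides.

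**Figure D5:**
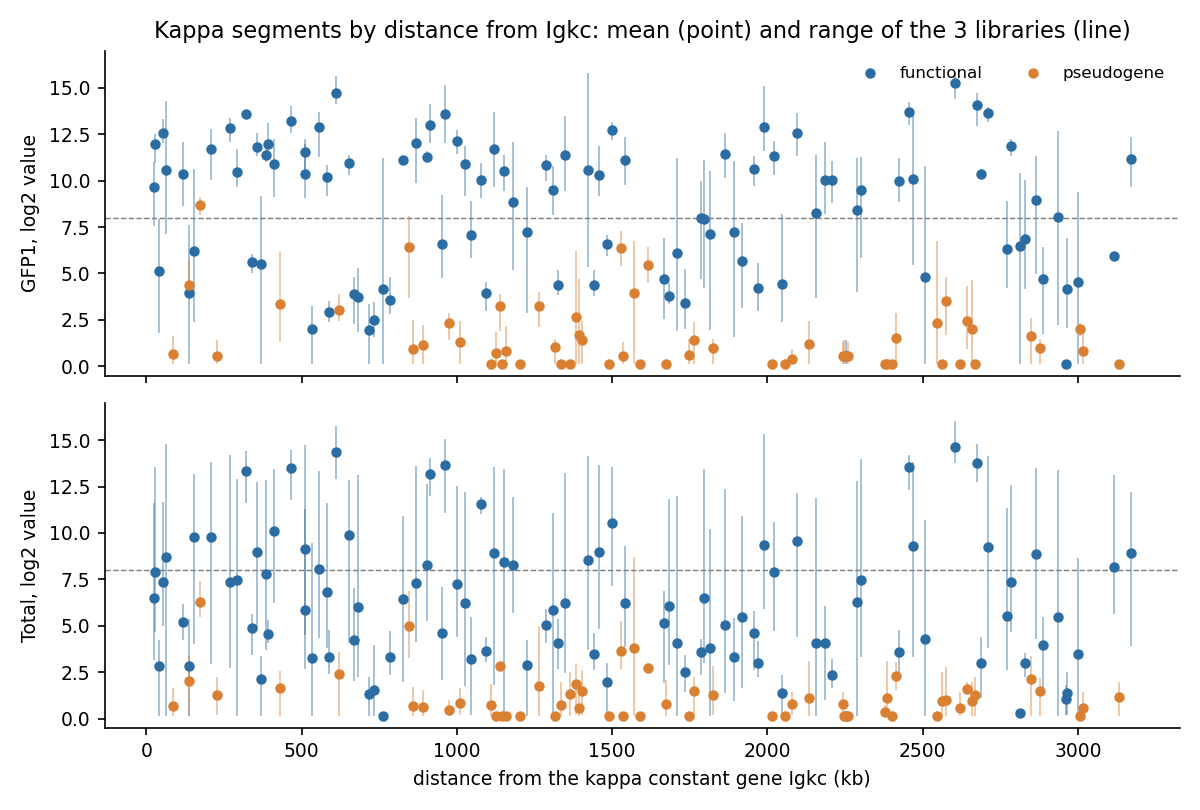
Mean log2 value (points) and range over the 3 libraries (lines) of each kappa segment against its distance from Igkc in kb, for GFP1 (top) and Total (bottom); the dashed line marks 8. High functional segments lie along the whole locus, Igkv3-11 is the pseudogene with a GFP1 mean above 8, and the lines are longer in Total than in GFP1 for many segments.

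Many segments are close copies, which limits how surely a value belongs to its name. A median of 33.8% of a segment's 31-base words also occur in another of the 160 (maximum 89%), and 53 segments share over 50%. There are 60 pairs with at least 95% identity; in 20 both GFP1 means were above 8, and in 15 a mean above 8 stood beside a mean under 6. The 3 closest pairs are Igkv3-11 and Igkv3-6 (98.8%), Igkv5-43 and Igkv5-45 (98.6%) and Igkv6-20 and Igkv6-29 (98.5%). The last pair is printed because its values differ most. Each line holds the last 295 bases of the V exon, 5′ to 3′, with the bases that differ from the partner in capitals (Igkv6-20 at chr6:70335841-70336135 and Igkv6-29 at chr6:70138462-70138756, both on the minus strand).
Igkv6-20: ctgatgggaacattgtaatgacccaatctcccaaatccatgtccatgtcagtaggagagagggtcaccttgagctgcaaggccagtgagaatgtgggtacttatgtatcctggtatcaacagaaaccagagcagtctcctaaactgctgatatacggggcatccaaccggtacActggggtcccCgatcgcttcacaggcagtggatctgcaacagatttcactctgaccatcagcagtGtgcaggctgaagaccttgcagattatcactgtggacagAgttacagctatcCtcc
Igkv6-29: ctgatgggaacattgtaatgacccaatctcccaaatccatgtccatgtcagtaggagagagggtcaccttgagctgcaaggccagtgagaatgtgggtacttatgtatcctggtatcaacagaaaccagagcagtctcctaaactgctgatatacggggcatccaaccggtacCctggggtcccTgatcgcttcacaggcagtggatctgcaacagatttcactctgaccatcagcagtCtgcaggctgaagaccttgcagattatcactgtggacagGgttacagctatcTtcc
Only 5 of these 295 bases differ. Igkv6-20 was nevertheless high in GFP1, as given above, while Igkv6-29 was at 2.40, 2.86 and 3.54 in GFP1 I, II and III and at 2.41, 4.79 and 2.74 in Total. Igkv3-6 was likewise near the bottom in all 6 libraries (0.14 to 1.67) beside Igkv3-11. In the third pair, Igkv5-43 was at 11.16, 11.08 and 11.58 in GFP1 and Igkv5-45 at 9.25, 4.74 and 5.71.

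Other genes of the light chain and of B lineage cells moved with the V segments. Of the 5 light chain constant genes in the table, all 5 were higher in GFP1 than in GFP4 and 4 in Total than in GFP4. Igkc was at 19.12 in all 6 GFP1 and Total libraries, the highest value the shared distribution holds. Iglc2 was at 13.12, 12.36 and 13.38 in GFP1 and 11.55, 12.47 and 12.14 in Total, and Iglc3 at 11.16, 11.11 and 11.28 in GFP1 and 9.87, 11.06 and 11.19 in Total. Iglc4 stayed at or under 3.5 in every library.

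Of 15 plasma cell genes, 14 were higher and 1 (Cd27) lower in GFP1 than in GFP4, and 13 were higher in Total. Their summed level was 4670 to 5820 ppm of the summed linear values in GFP1, 2995 to 6528 ppm in Total and 606 to 789.9 ppm in the other groups. Mzb1, a chaperone of antibody assembly, was 5.23 higher in GFP1 than in GFP4 (SE 0.36, limma adjusted p = 4.88e-08), and Sdc1, the syndecan on the plasma cell surface, 2.27 higher (SE 0.19, adjusted p = 4.75e-08). Edem1, which acts in disposal of misfolded proteins, was 1.73 higher (SE 0.13, adjusted p = 1.85e-08), and Txndc5, a protein disulfide isomerase, 1.34 (SE 0.12, adjusted p = 1.27e-07). Of 12 B cell genes, 7 were higher in GFP1 and 7 in Total than in GFP4; Cd79a, a subunit of the B cell receptor, differed by 2.58 between GFP1 and GFP4 (SE 0.36, adjusted p = 0.000289), and Ms4a1, the B cell surface protein targeted by anti-B-cell antibodies, by 2.01 (SE 0.34, adjusted p = 0.000583). The B cell sum was 250.2 to 429.7 ppm in GFP1, 229.95 to 468.5 ppm in Total and 96.7 to 179.8 ppm in the others. Between GFP1 and Total, limma called 0 of the 5 light chain constant genes and 0 of the 12 B cell genes (1 and 0 at an unadjusted p under 0.05). Over all genes tested, 0.318% were called higher in GFP1 and 1.41% lower, so 0 calls in such short lists do not show equal levels. Igkc had the same highest value in every GFP1 and Total library and could not be called. Of the 15 plasma cell genes, Edem1 was 0.54 higher in GFP1 than in Total (SE 0.13, limma adjusted p = 0.0377). Cd27, a co-stimulatory receptor, differed by -0.40 (SE 0.09, limma adjusted p = 0.018), lower in GFP1.

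Of 7 genes of recombination and the surrogate light chain, which mark developing B cells, 1 was higher in GFP1 than in GFP4, Vpreb3 (1.54, SE 0.43, limma adjusted p = 0.0162). Rag1, a subunit of the recombinase, was at 5.68, 4.86 and 4.33 in GFP4 and 5.30, 5.78 and 5.24 in GFP1, which overlap. The summed level of the 7 was 14 to 24.6 ppm in GFP1, 14.4 to 22.9 ppm in Total and 7.45 to 19.1 ppm in the others. Of 10 T and NK cell genes, 3 were higher and 1 lower in GFP1 than in GFP4 (165 to 211.3 ppm in GFP1, 97.5 to 163.2 ppm in Total, 53.3 to 78.1 ppm in the others), and of 10 macrophage and neutrophil genes 0 passed in either GFP1 or Total against GFP4, also at an unadjusted p under 0.05 (2172 to 4392 ppm in GFP1, 1067 to 2921 ppm in Total, 1265 to 4309 ppm in the others). No gene of these lists was at the lowest value in all libraries of a group, apart from 1 light chain constant gene in GFP4 and 1 recombination gene in GFP2. The HSC markers Hlf, Mecom and Kit were above 12 in all 15 libraries, and 8 of 10 HSC genes were lower in GFP1 than in GFP4 (2884 to 2989 ppm against 5189 to 6135 ppm). What part these other cell types had in the V segment values was not tested.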

How the data were processed

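Bone marrow HSC RNA was amplified with SMART-Seq v4 and made into Nextera XT libraries, per the labels' protocols. The submitters' processing notes name kallisto 0.43.0 and GRCm38. The authors deposited log2 values that share a single distribution across libraries, as quantile normalization gives; the unit before the logarithm, any length correction and the offset were not stated in any source used. Annotated transcripts of the segments run from 200 to 501 bases, so levels and shares of different segments may carry differences in length. Such scaling hides differences in total RNA and pushes other genes down where V segments rank high.

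The 27994 genes whose linear value reached 1 in 3 or more libraries entered limma 3.58.1 in R 4.3.3, with 1 mean per group over all 15 libraries, an intensity trend and robust moderation. The p-values were Benjamini-Hochberg adjusted over all genes tested within each comparison at 0.05, and the segments were read from that fit. The libraries of a group came from mice of different age and doxycycline time, so the spread behind the p-values includes those differences; whether each is a single mouse or a pool is not given in the labels. Names, positions and sequences come from GENCODE. Identity is over aligned bases covering at least 80% of the shorter segment. Coding bases were aligned where annotated, and otherwise the whole transcript, from 1 transcript per segment. Same-numbered GFP1 and Total libraries deviated together from their group means (r over all genes tested 0.24, 0.16 and 0.13 for I, II and III). Over the V segments alone, these r were 0.40, 0.29 and 0.27. Over all genes tested, r was above 0.1 in 8 of 30 same-number pairs of libraries and in 3 of 60 pairs of different numbers. The main fit did not include the replicate number. The replicate block was an alternative, and the block with the 2 groups alone was added after seeing the data.

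The segments and lists were chosen with earlier results of these data known. Named segments were the 5 highest means in GFP1 and Total, the highest of each library, the smallest p and largest difference of each comparison, all lambda segments, those above 8 in all 6 GFP1 and Total libraries or in any GFP2, GFP3 or GFP4 library, those nearest 8, and the 3 closest pairs. Alternatives were other thresholds, filters, offsets, scalings, weights, the replicate block, fits of 2 groups alone and each library left out.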

Additional observations from a re-analysis of the deposited data

How the results depend on the processing

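Every called segment was higher in the first group of its comparison under each alternative run, and no named segment changed sign. Counts of called segments without 1 library ran from 66 to 83 for GFP1 minus GFP4, 36 to 75 for GFP1 minus GFP2, 0 to 1 for GFP2 minus GFP4, 18 to 37 for Total minus GFP4 and 7 to 19 for GFP1 minus Total. With the 2 groups fitted alone, counts were 1 for GFP2 minus GFP4, 15 for Total minus GFP4 and 5 for GFP1 minus Total; an offset of 10 gave 19 for Total minus GFP4, and an offset of 0.1 gave 3 for GFP1 minus Total. The cause was not tested. With the replicate block the counts were 81, 68, 0, 33 and 11 in the order above, all within 1.5 times the main ones. The block together with the 2 groups alone, added after seeing the data, gave 1 for GFP2 minus GFP4 and 19 for Total minus GFP4. The called segments also changed. Of the 31 main calls for Total minus GFP4, 13 were among the 15 with the 2 groups alone and 11 among these 19. Without Total I, 11 segments were called for GFP1 minus Total, with 6 of the 9 main calls among them. Of 67 called differences of named segments, 37 kept their call under every alternative; those of Igkv1-117, Igkv1-110 and Igkv6-23 against GFP4, each with a single high GFP4 library, were among those lost.

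At a threshold of 6 the mean number of segments was 2.33 in GFP3 and 1.67 in GFP2, and at 7 it was 1.33 in GFP3; the GFP4 mean was 0.5 to 1.5 without 1 library. At 10, the mean shared part was 86.5% of a Total list with the GFP1 library of the same number, 73.1% with those of other numbers and 74.1% between GFP1 libraries, against 90.8%, 84.2% and 85.9% at 8. Depth is unknown, so what a low value means in reads cannot be given, and 28 to 105 segments per library were at its lowest value.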
